A study of Mus musculus with 36 samples.

Results

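The freshly dissociated cell suspension was compared between mice with a hepatocyte knockout of Nampt (HNKO) and their WT littermates, using 12 suspension libraries of the 36 libraries in the series, 6 from each genotype. The members were taken by their labels as every library of cell suspension, and the comparison was HNKO minus WT over all expressed genes. The HNKO mice were female, carried loxP-flanked Nampt alleles and expressed Cre from the albumin (Alb) promoter, which is active in hepatocytes. The WT mice were female floxed littermates without Cre on the same C57BL6 background, so both genotypes carried the floxed Nampt alleles. Feeding of a purified diet began at an age of 10 to 12 weeks in every mouse and lasted 3 to 5 weeks. The suspension was made by collagenase from the lobes that remained after the median lobe had been taken as the liver sample, then strained, washed, pelleted and frozen before plating. Other libraries from the same 12 mice came from that liver piece and from primary hepatocytes kept for 24 h in culture. The labels number each mouse, so its 3 kinds of library can be matched, and no mouse belongs to both genotypes.

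Nampt encodes nicotinamide phosphoribosyltransferase, which turns nicotinamide into nicotinamide mononucleotide and is the rate-limiting step of NAD salvage. NAD carries electrons for mitochondrial oxidation and is consumed by sirtuins, PARPs and CD38, which release nicotinamide again. Hepatocytes can also make NAD from tryptophan through the kynurenine pathway and from nicotinic acid through Naprt. A liver cell suspension is mostly hepatocytes, with some endothelial cells, Kupffer cells, stellate cells and cholangiocytes carried along.

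Of 14932 genes tested across the series, 4 were called between HNKO and WT cell suspensions, a share of 0.0268%. Cib3, Ccdc120 and Atp11a were higher in HNKO suspensions (0.0201%) and Nampt was lower (0.00670%). The threshold was an adjusted p (Benjamini-Hochberg) under 0.05 in edgeR's quasi-likelihood test, in a fit over all 6 groups that share an estimate of the spread. An unadjusted p under 0.05 was reached by 2135 genes (14.3%), of which 1538 (10.3%) were higher in HNKO and 597 (3.998%) lower. When the 12 suspensions were fitted alone, where 12618 genes were tested, edgeR called 0 genes, with 1777 at an unadjusted p under 0.05. On the same 14932 genes, an alternative added after these values were seen, the suspensions alone also gave 0 calls, with 2095 at that p. Nothing in the labels says more of the replicates than that they are different mice.

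Nampt (ENSMUSG00000020572.8, GRCm38 chromosome 12, 32819545 to 32853349, plus strand) checks the genotype labels. It had 27.8, 39.4 and 59.1 CPM (lowest, median and highest; fragment counts scaled to library size, CPM) in HNKO suspensions, against 58.5, 103 and 159 CPM in WT suspensions. All libraries of HNKO lay below the WT median, but the groups overlapped, since the HNKO suspension of mouse 562 was just above the WT suspension of mouse 544. The log2 fold change was -1.23 ± 0.20 (SE, n = 6 each, adjusted p = 0.0058 by edgeR's quasi-likelihood test), which left a mean of 42.4% of the WT level. A two-sided exact permutation test of mean log2 CPM over the 12 suspensions gave p = 0.0043, where the smallest p these 924 splits allow is 0.0022. Nampt fell to 50.2% of WT in the liver of the same mice and to 39.4% in primary hepatocytes. The deleted interval was not read here, so the remaining counts cannot be divided between hepatocytes and other cells, or between intact and recombined alleles. In a bulk suspension, fewer cells of a type and less RNA per cell cannot be told apart.

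The sequences just upstream of the 3 genes called higher are shown because these genes moved together with the genotype. Each is a RefSeq window on GRCm38.p6 of 250 bases before to 50 bases after the annotated start, written 5′ to 3′ on the gene's strand. Capitals mark the GC box (GGGCGG) or the CCAAT box (CCAAT), searched on both strands together with the E-box (CACGTG) and the AP-1 site (TGANTCA).
Cib3, minus strand of chr8:72212788-72213087: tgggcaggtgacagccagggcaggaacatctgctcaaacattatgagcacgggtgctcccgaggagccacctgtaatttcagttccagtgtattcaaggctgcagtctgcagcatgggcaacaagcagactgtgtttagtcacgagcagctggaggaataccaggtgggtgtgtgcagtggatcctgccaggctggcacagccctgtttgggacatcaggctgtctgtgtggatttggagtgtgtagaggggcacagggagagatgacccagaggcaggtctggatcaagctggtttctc
Ccdc120, minus strand of chrX:7741275-7741574: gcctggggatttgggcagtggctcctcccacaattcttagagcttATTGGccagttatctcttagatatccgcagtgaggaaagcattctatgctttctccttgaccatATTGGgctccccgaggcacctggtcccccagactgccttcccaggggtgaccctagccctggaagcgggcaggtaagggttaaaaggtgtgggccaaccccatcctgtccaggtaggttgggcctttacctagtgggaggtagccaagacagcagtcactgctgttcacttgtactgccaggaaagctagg
Atp11a, plus strand of chr8:12756766-12757065: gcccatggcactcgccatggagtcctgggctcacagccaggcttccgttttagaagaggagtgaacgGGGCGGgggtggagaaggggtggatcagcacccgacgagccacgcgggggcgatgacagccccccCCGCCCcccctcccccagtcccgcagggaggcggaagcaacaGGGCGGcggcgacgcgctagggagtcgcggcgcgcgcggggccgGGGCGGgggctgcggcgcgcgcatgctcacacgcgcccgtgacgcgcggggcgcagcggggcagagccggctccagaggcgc
The Cib3 window held none of the 4 motifs. The Ccdc120 window held 2 CCAAT boxes and the Atp11a window 4 GC boxes. Among 27025 promoters of the same length, 35.9% held a GC box, 37.9% a CCAAT box, 7.24% an E-box and 7.93% an AP-1 site. The Atp11a window was rich in GC (76.0%), against 55.7% for Cib3 and 55.3% for Ccdc120. Among the 10800 such promoters of tested genes the shares were 61.6, 38.7, 10.1 and 5.50%. The Ccdc120 window lies inside the longer GENCODE gene. No motif was shared by the 3 windows, which describes their letters only.

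Cib3 encodes a calcium- and integrin-binding protein known in mouse inner ear as a partner of the mechanotransduction channel of hair cells. The gene (ENSMUSG00000074240.4) lies on chromosome 8, 72204335 to 72212837, on the minus strand. It had 2.46, 13.8 and 43.3 CPM in HNKO suspensions, against 0.365, 0.722 and 1.27 CPM in WT suspensions. No HNKO suspension overlapped a WT suspension, but the HNKO libraries split into 3 from 22.6 CPM upward and 3 from 5.11 CPM downward. The log2 fold change was 4.65 ± 0.74 (edgeR adjusted p = 0.0056). With the mouse as a random block in limma voom it was 3.96 and not called (adjusted p = 0.26). It was 4.39 in liver (edgeR adjusted p = 0.0049). In primary hepatocytes Cib3 averaged 1.45 CPM in HNKO and 1.03 CPM in WT, with a log2 fold change of 0.45. The difference of the genotype effect between suspension and culture was 4.21, which did not pass the test (adjusted p = 0.059), but with the mouse as a fixed block it was 3.88 and passed (adjusted p = 0.041). Of the other members of the family, Cib1 had a log2 fold change of 0.20 ± 0.11 and Cib2 of -0.02 ± 0.31, neither called, and Cib4 was too low to be tested.

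Ccdc120 encodes a protein with a CUPID domain that binds cytohesins, the exchange factors of Arf GTPases. The gene (ENSMUSG00000031150.13) lies on chromosome X, 7731714 to 7750905, on the minus strand. It had 1.53, 3.00 and 3.44 CPM in HNKO suspensions, against 0.293, 0.626 and 0.950 CPM in WT suspensions. All HNKO libraries were above all WT libraries, and within HNKO the mice 540 and 546 were lowest. The log2 fold change was 2.04 ± 0.35 (edgeR adjusted p = 0.0068). With the mouse as a random block in limma voom it was 2.05 and not called (adjusted p = 0.21). It was 1.65 in liver (edgeR adjusted p = 0.0072). In culture the order turned, with 26.0 CPM in HNKO and 35.9 CPM in WT hepatocytes, a log2 fold change of -0.46 that was not called. The effect in suspension exceeded that in culture by 2.51 ± 0.42 on the log2 scale (edgeR adjusted p = 0.0056). Of the 8 CUPID domain and cytohesin genes, all tested, Ccdc120 was the one called. Cyth3 had a log2 fold change of 0.45 ± 0.20 and the related Inava of 1.76 ± 1.28, and Inava reached at most 0.513 CPM in an HNKO suspension and 0.189 CPM in a WT suspension. The median of the 8, a list built around Ccdc120, was 0.38 (0.16 without HNKO 552), against 0.01 over all tested genes.

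Atp11a encodes a P4-ATPase flippase that moves phosphatidylserine to the inner leaflet of the plasma membrane, with Tmem30a as partner. The gene (ENSMUSG00000031441.15) lies on chromosome 8, 12757014 to 12868728, on the plus strand. It had 20.9, 22.1 and 40.7 CPM in HNKO suspensions, against 5.86, 11.3 and 16.4 CPM in WT suspensions. The groups did not overlap, and the highest HNKO value, from mouse 552, stood apart from the other 5, which lay between 20.9 and 26.0 CPM. The log2 fold change was 1.19 ± 0.22 (edgeR adjusted p = 0.019). Without HNKO 552 the adjusted p was 0.12, and it was 0.063 without WT 548, 0.089 without WT 554 and 0.066 without WT 564. It was also called in liver, with a log2 fold change of 1.04, and in primary hepatocytes, with 0.74. Among 18 flippase genes and partners, 15 were tested and Atp11a was the one called. Atp8b2 had a log2 fold change of 1.04 ± 0.39 and Atp8a1 of 0.49 ± 0.19, while Tmem30a had -0.14 ± 0.13. Atp11b had -0.21 ± 0.10.

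**Figure D1:**
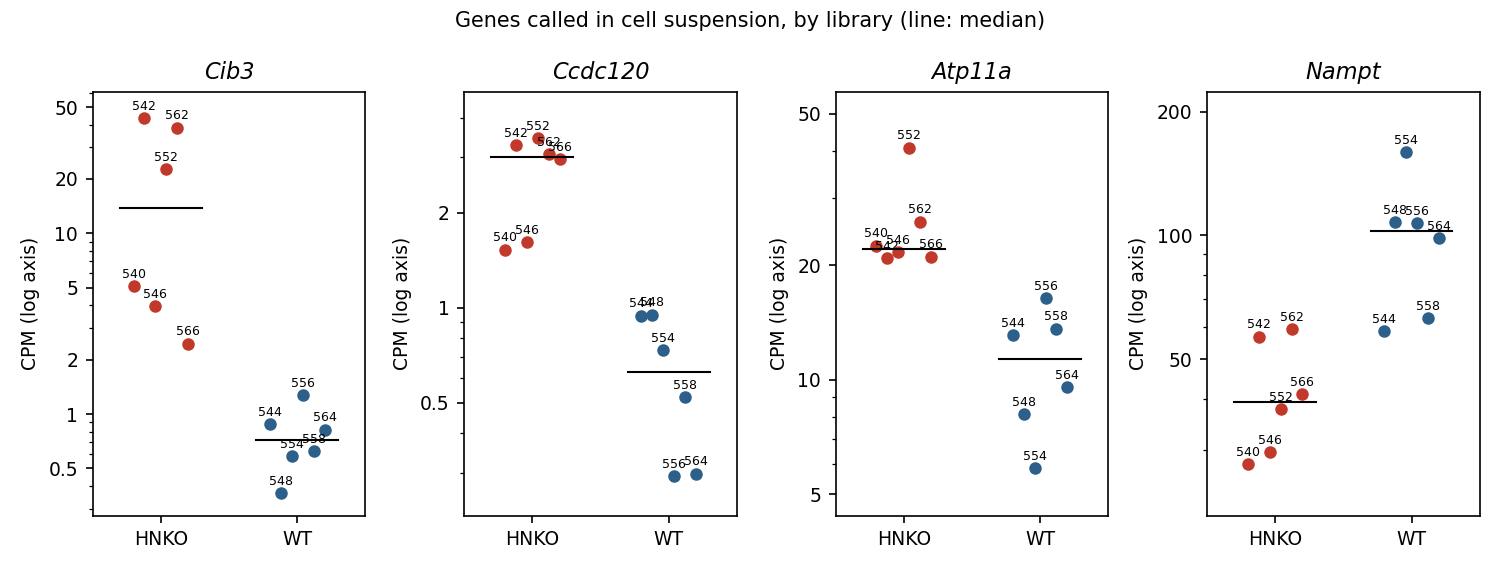
CPM on a log axis in each cell suspension, HNKO left and WT right, with mouse numbers beside the points and the median as a line. Cib3, Ccdc120 and Atp11a were higher in every HNKO library than in any WT library, while Nampt overlapped between 58.5 and 59.1 CPM.

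The next genes by p were not called in the main edgeR fit, and their values are given as such. The 15 named genes higher in HNKO with the smallest p were Cib3, Ccdc120 and Atp11a, then Tax1bp3, Scamp5, Col4a1, Msrb3, Tspan17, Clec4g, Tuba1b, Unc13b, Ddr1, Flna, Adam15 and Ppp1r15a. The 12 uncalled ones had adjusted p from 0.061 to 0.079 in edgeR's test. DESeq2 called all 12, with adjusted p from 0.00038 (Ddr1) to 0.013 (Tspan17), while edgeR on the suspensions alone called none. Ddr1, a collagen receptor kinase, had 1.83, 2.91 and 3.66 CPM in HNKO suspensions, against 0.147, 0.433 and 1.19 CPM in WT suspensions. The groups did not overlap, and the log2 fold change was 2.08 ± 0.46. Unc13b, a priming factor of vesicle release, had 6.05, 8.72 and 12.2 CPM in HNKO and 2.93, 4.69 and 5.27 CPM in WT suspensions, again with no overlap. Their liver effects were called, at log2 fold changes of 1.74 and 1.31. Scamp5, a secretory carrier membrane protein, had a log2 fold change of 0.87 ± 0.18 and was called in liver (0.95) and in culture (0.75). Col4a1, the basement membrane collagen, had 43.8, 66.8 and 175 CPM in HNKO and 22.3, 28.9 and 63.1 CPM in WT suspensions. The groups overlapped. Clec4g, an endothelial lectin, had a log2 fold change of 0.91 ± 0.19 in suspension and -0.01 in liver. That difference did not pass edgeR's test (adjusted p = 0.98). Ppp1r15a, a stress-induced regulator of eIF2α phosphatase, had 0.69 ± 0.15 in suspension, -0.03 in liver and -0.24 in culture. Its suspension and liver effects did not pass edgeR's test of their difference (adjusted p = 0.98). The difference between its suspension and culture effects did not pass the test (adjusted p = 0.053), but with the mouse as a fixed block it was 0.90 and passed (adjusted p = 0.025).

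The 15 named lower genes were Nampt and then Klf9, Foxq1, Dct, Mup15, Pnldc1, Mup2, Dhdh, Pigg, Foxa1, Slc15a5, Atxn2, Ppp4r3a, Aqp4 and Slc13a2. In edgeR's test the 14 uncalled ones had adjusted p from 0.091 to 0.098. DESeq2 called all 14, with adjusted p from 0.0070 (Klf9 and Foxq1) to 0.032 (Mup15), while edgeR on the suspensions alone called none. Klf9, a glucocorticoid-responsive Krüppel-like factor, had 48.3, 69.7 and 95.2 CPM in HNKO suspensions, against 101, 115 and 157 CPM in WT suspensions. The groups did not overlap, and the log2 fold change was -0.72 ± 0.17. It was called in culture (-0.55) and not in liver (-0.55). Foxa1, a pioneer factor of hepatocyte genes, had 6.23, 9.34 and 10.4 CPM in HNKO and 10.9, 12.3 and 14.0 CPM in WT suspensions, with no overlap. Its log2 fold change was -0.45 ± 0.12 in suspension, 0.00 in liver and 0.05 in culture. Neither difference from suspension passed edgeR's test (adjusted p = 0.98 for liver and 0.15 for culture). Dct, dopachrome tautomerase, had 4.08, 5.17 and 8.95 CPM in HNKO and 9.50, 13.7 and 23.3 CPM in WT suspensions. Its effect was called in liver (-2.28) and in culture (-2.38). Aqp4, a water channel, had a log2 fold change of -1.48 ± 0.40 in suspension, where the groups overlapped, and was called in liver (-2.34). Over all tested genes, 76 (0.509%) were higher in every HNKO than in any WT suspension and 35 (0.234%) were lower in every one.

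**Figure D2:**
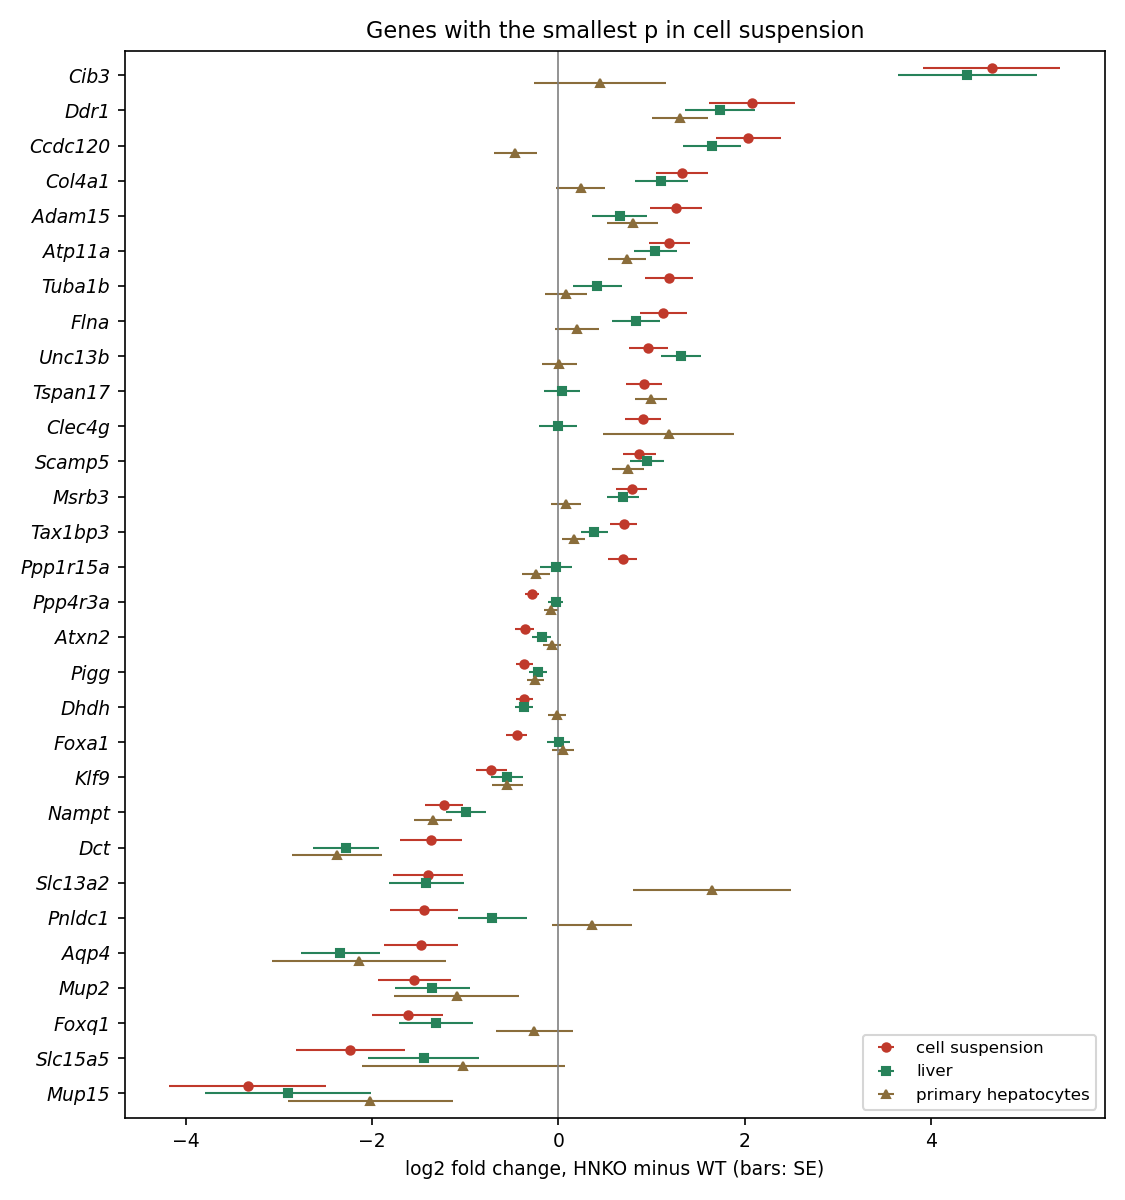
Log2 fold change of HNKO over WT with SE for the called genes and the genes of smallest p in cell suspension, drawn beside the same genes in liver and primary hepatocytes. Cib3 stood at 4.65 in suspension and 0.45 in culture, and Ccdc120 at 2.04 and -0.46.

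Of the NAD salvage genes, 11 of 14 were tested and Nampt was the only one called in suspension. The 10 others had log2 fold changes between -0.22 and 0.40. Nmnat1, which makes NAD from nicotinamide mononucleotide in the nucleus, had -0.19 ± 0.11, and its mitochondrial counterpart Nmnat3 had -0.14 ± 0.15. Naprt, which starts NAD synthesis from nicotinic acid, had 0.12 ± 0.15, and Nmrk1, the nicotinamide riboside kinase, had -0.15 ± 0.23. Slc25a51, the mitochondrial NAD carrier, had -0.01 ± 0.19. Pnp, a purine nucleoside phosphorylase that also splits nicotinamide riboside, had 26.2, 39.1 and 54.7 CPM in HNKO suspensions, against 25.8, 28.0 and 43.2 CPM in WT suspensions, where the groups overlapped. Its log2 fold change was 0.40 ± 0.17 with an adjusted p of 0.28 in edgeR's test.

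In the kynurenine route 8 of 9 genes were tested, none was called, and 7 had negative log2 fold changes. The median over all 8 was -0.28. Afmid, the formamidase of that route, had 23.0, 41.5 and 55.4 CPM in HNKO suspensions, against 38.0, 57.9 and 78.7 CPM in WT suspensions. Its log2 fold change was -0.48 ± 0.21, with an adjusted p of 0.30. Tdo2, the enzyme that opens the tryptophan ring, had -0.72 ± 0.42 and Qprt, which forms nicotinic acid mononucleotide, had 0.08 ± 0.16. The 3 genes of nicotinamide clearance, Nnmt, Aox1 and Aox3, lay between -0.22 and -0.01. Among NAD-consuming enzymes 23 of 24 were tested and 0 called by edgeR, with 2 at an unadjusted p under 0.05, a smaller share than the 14.3% of all tested genes. Parp14 had a log2 fold change of 0.37 ± 0.13 and Parp2 of 0.24 ± 0.11. Cd38, an NAD glycohydrolase of immune cells, had 0.71 ± 0.37, and the 7 sirtuins had values between -0.21 and -0.04. Parp1 had a log2 fold change of 0.03 ± 0.06.

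**Figure D3:**
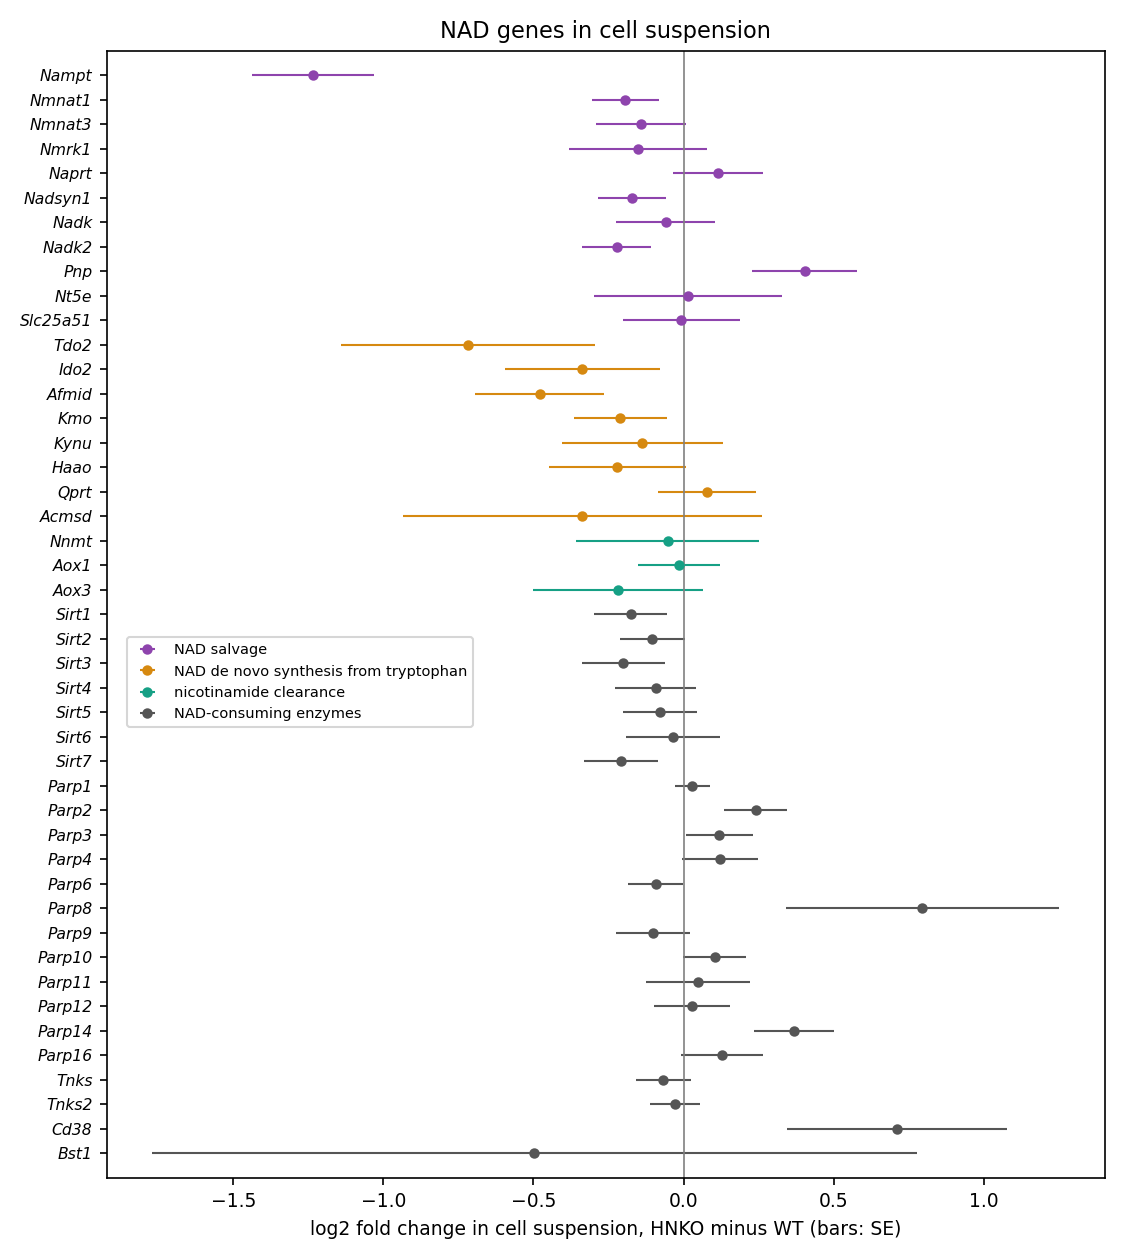
Log2 fold change of HNKO over WT in cell suspension with SE for each tested gene of NAD salvage, synthesis from tryptophan, nicotinamide clearance and NAD consumption. Nampt at -1.23 lies apart from the other salvage genes, which lie between -0.22 and 0.40.

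In the main edgeR fit no marker of cells other than hepatocytes was called between HNKO and WT suspensions, and the values of these lists are a description. DESeq2, with 225 calls in all, called 2 endothelial, 1 macrophage, 6 stellate and 3 cholangiocyte markers. Without WT 544, edgeR made 326 calls, with 10, 1, 7 and 3 of these markers. With the 12 suspensions alone it called 0 genes. All 20 endothelial markers were tested and had a positive log2 fold change, between 0.58 and 0.91, and 20 reached an unadjusted p under 0.05, against 10.3% of all tested genes. Pecam1, an adhesion molecule of endothelium, had 23.8, 37.4 and 74.1 CPM in HNKO suspensions, against 18.5, 21.7 and 34.8 CPM in WT suspensions. Stab1, a scavenger receptor of sinusoidal endothelium, had 75.8, 96.9 and 217 CPM in HNKO and 48.5, 67.7 and 119 CPM in WT suspensions. Both genes overlapped between the groups. The summed level of the list ran from 846 to 2060 CPM in HNKO suspensions, with a median of 1017 CPM, and from 564 to 1175 CPM in WT suspensions, with a median of 683 CPM. The median log2 fold change was 0.73 in suspension and 0.11 in liver. EdgeR's test of the difference between suspension and liver called 0 of the 20 genes.

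Stellate cell and fibroblast markers had 19 of 20 genes tested, with Gfap too low, and all log2 fold changes were positive. Their median was 1.03, and 11 reached an unadjusted p under 0.05. Of all tested genes 10.3% were higher at that p, the share to set beside each list here. Col1a1, a fibrillar collagen chain, had 2.18, 10.1 and 32.2 CPM in HNKO suspensions, against 0, 0.542 and 3.33 CPM in WT suspensions. Matrix genes, which share such collagens, had 40 of 42 tested members with positive log2 fold changes, 31 at an unadjusted p under 0.05 and a median of 1.17. Nid1, a linker of basement membranes, had a log2 fold change of 1.25 ± 0.32 and was called in liver. Kupffer cell and macrophage markers had 20 of 20 positive values and 8 at an unadjusted p under 0.05. Mrc1, the mannose receptor, had 71.4, 80.8 and 186 CPM in HNKO and 49.7, 56.7 and 99.9 CPM in WT suspensions, which overlapped. Among other leukocyte markers 9 of 13 tested genes were positive, with a median of 0.61 (0.14 without HNKO 552 and 0.96 without WT 544), and 5 tested erythroid transcripts had a median of 0.02 (-0.92 without HNKO 552). The marker lists overlap in part and their genes are not specific to a single cell type.

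Cholangiocyte markers had 20 of 21 genes tested, with Sctr too low, 18 with positive log2 fold changes and a median of 1.52, against 1.80 in liver. Over the alternatives the suspension median ran from 0.36 to 1.70, each over the members kept in that fit. Spp1, osteopontin, had 19.4, 74.4 and 163 CPM in HNKO suspensions, against 5.13, 12.0 and 16.9 CPM in WT suspensions. The groups did not overlap and the log2 fold change was 2.91 ± 0.76, with an adjusted p of 0.098. Bicc1, an RNA-binding protein of biliary epithelium, had 2.21, 4.30 and 7.62 CPM in HNKO and 0.440, 1.17 and 1.95 CPM in WT suspensions, again without overlap. Its log2 fold change was 1.84 ± 0.42 in suspension, and it was called in liver (1.96) and in culture (1.78). Onecut1, a transcription factor that hepatocytes also use, went the other way within the list at -1.17 ± 0.37. The keratins Krt19 and Krt7, which define bile duct cells, averaged 0.559 and 0.298 CPM in HNKO suspensions, against 0.162 and 0.0717 CPM in WT suspensions.

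No hepatocyte marker was called either. All 30 were tested, 23 had negative log2 fold changes, and the median was -0.15 (-0.09 without HNKO 552). At an unadjusted p under 0.05 there were 1 higher and 2 lower, against 10.3% and 3.998% of all tested genes. Alb, serum albumin, had a log2 fold change of -0.24 ± 0.18 and took 7.91 to 11.9% of the counts in HNKO and 10.8 to 12.6% in WT suspensions. Cyp3a11, a drug-metabolising cytochrome P450, had 927, 1452 and 1694 CPM in HNKO suspensions, against 484, 815 and 1188 CPM in WT suspensions, and a log2 fold change of 0.74 ± 0.26. The bile acid importer Slc10a1 had -0.53 ± 0.24. Cytochromes P450 and conjugation enzymes had a median of -0.25 over 31 genes, and bile acid genes -0.17 over 20 (-0.11 without HNKO 552). Of 16 periportal genes 16 were negative, with a median of -0.28 (-0.16 without HNKO 552), and of 15 pericentral genes 14 were negative, with a median of -0.27 (-0.16 without WT 564). Sult5a1, a sulfotransferase, had 0.573, 9.73 and 17.5 CPM in HNKO suspensions, against 17.5, 23.1 and 34.7 CPM in WT suspensions, where the groups barely overlapped. Its effect was called in liver (-2.22) but not in suspension (-1.46 ± 0.49).

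**Figure D4:**
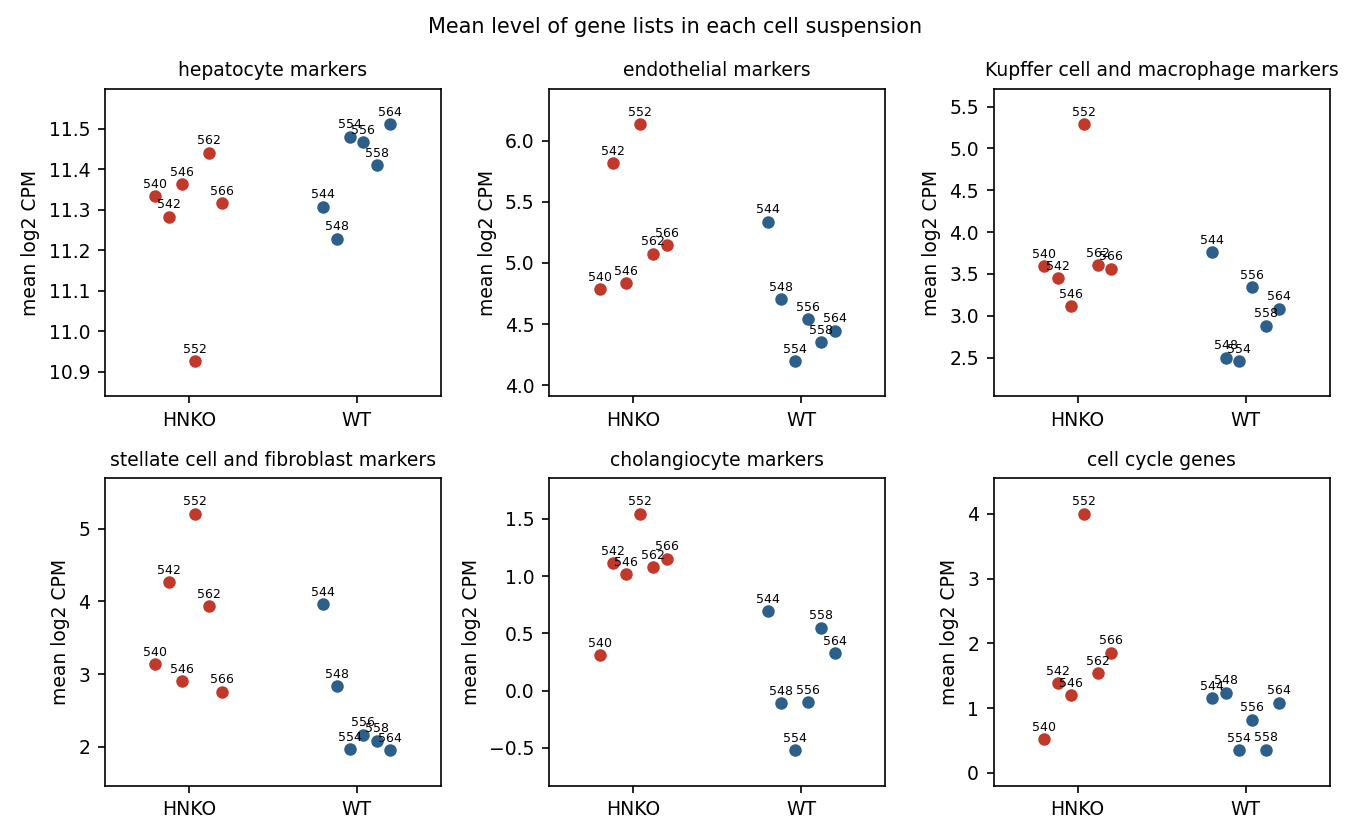
Mean log2 CPM of marker lists and of cell cycle genes in each cell suspension, HNKO left and WT right, with mouse numbers beside the points. HNKO 552 was highest for macrophage markers (5.29) and cell cycle genes (4.0) and lowest for hepatocyte markers (10.9), and WT 544 was highest among WT for endothelial markers (5.34).

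Libraries within each genotype differed, and these values touch every list. The HNKO suspension of mouse 552 had a mean log2 CPM of 4.0 over the cell cycle genes, against 0.52 to 1.86 in the 5 other HNKO suspensions, and 12.6% of its counts were mitochondrial mRNA, against 4.70 to 7.26% in those. Without it, the median log2 fold change of the cell cycle genes was 0.46 in place of 1.69, that of the macrophage markers 0.19 in place of 0.68, and that of the endothelial markers 0.52 in place of 0.73. The stellate median was 0.58 in place of 1.03, the matrix median 0.72 in place of 1.17 and the cholangiocyte median 1.30 in place of 1.52. With the 12 suspensions fitted alone, where 12618 genes were tested, the cholangiocyte median was 0.37. That value covers only the members that passed that fit's own filter, so it may not rest on the same genes as 1.52. Within WT, mouse 544 had the highest mean level of endothelial, macrophage and stellate markers. Without it the endothelial median was 0.96, the stellate median 1.50, and 326 genes were called, 299 of them higher in HNKO. These included Col4a1, Clec4g, Flna and all 4 of the genes called above. Without HNKO 540 the count was 98, and without HNKO 546 it was 93. The part of the marker levels in these counts was not tested.

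Cell cycle genes had 28 of 29 tested members with positive log2 fold changes. Of these, 23 reached an unadjusted p under 0.05, against 10.3% of all tested genes. Mcm2, a subunit of the replicative helicase, had 4.27, 6.33 and 16.9 CPM in HNKO suspensions, against 2.24, 2.66 and 4.90 CPM in WT suspensions. Foxm1, a mitotic transcription factor, had 0.305, 0.990 and 14.4 CPM in HNKO suspensions, against 0, 0.439 and 0.746 CPM in WT suspensions, with its highest value in mouse 552. Among p53 response genes 16 of 22 were positive, with a median of 0.22 (0.13 without HNKO 540), and Cdkn1a, the cyclin-dependent kinase inhibitor p21, had 1.20 ± 0.46. Plk2, a stress-induced kinase, had 0.76 ± 0.21. Among integrated stress response genes the median was 0.11 (0.00 to 0.18 leaving out 1 suspension in turn), with 0 of 20 members called and 0 at an unadjusted p under 0.05. Fetal liver genes had a median of 0.80 over 6 tested genes (0.33 to 1.02 over the alternatives). Of these, 4 were positive, 2 were negative and 1 was higher at an unadjusted p under 0.05. Afp, alpha-fetoprotein, had 0.87 ± 0.35, while Peg3 had -0.48 ± 0.28. The summed level of the list went the other way, with a median of 16.47 CPM in HNKO and 20.05 CPM in WT suspensions. Immediate early genes had 7 of 24 higher at an unadjusted p under 0.05, against 10.3% of all tested genes, and 1 lower, against 3.998%. Their median was 0.08 (0.04 to 0.25 leaving out 1 suspension in turn), and Nr4a1, an orphan nuclear receptor, had 1.09 ± 0.36.

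No transcript on the lists of mitochondrial metabolism was called in suspension. Over the 36 complex I subunits the median log2 fold change was -0.09, and subunits of complexes II to V had -0.07 over 38 genes. At an unadjusted p under 0.05, 1 and 5 of them were lower and 0 higher, against 3.998% of all tested genes lower. Sdha, the catalytic subunit of succinate dehydrogenase, had 490, 635 and 700 CPM in HNKO suspensions, against 624, 696 and 788 CPM in WT suspensions. The medians were -0.03 and 0.00 without HNKO 552, and -0.15 and -0.16 without HNKO 546. In the liver of the same mice they were -0.35 and -0.36, with 7 and 8 members called, against 1.51% of all tested genes. The difference of the genotype effect between suspension and liver was called for 0 of these genes. Mitochondrially encoded mRNAs had 10 of 11 negative values in suspension, a median of -0.13 (-0.33 without HNKO 552 and -0.05 without WT 556), 0 called and 0 at an unadjusted p under 0.05. Fatty acid oxidation genes had 26 of 28 negative values and a median of -0.19 (-0.11 without HNKO 552 and -0.29 without WT 556). Cholesterol synthesis genes had a median of 0.02 (-0.14 without HNKO 546 and 0.16 without HNKO 540).

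**Figure D5:**
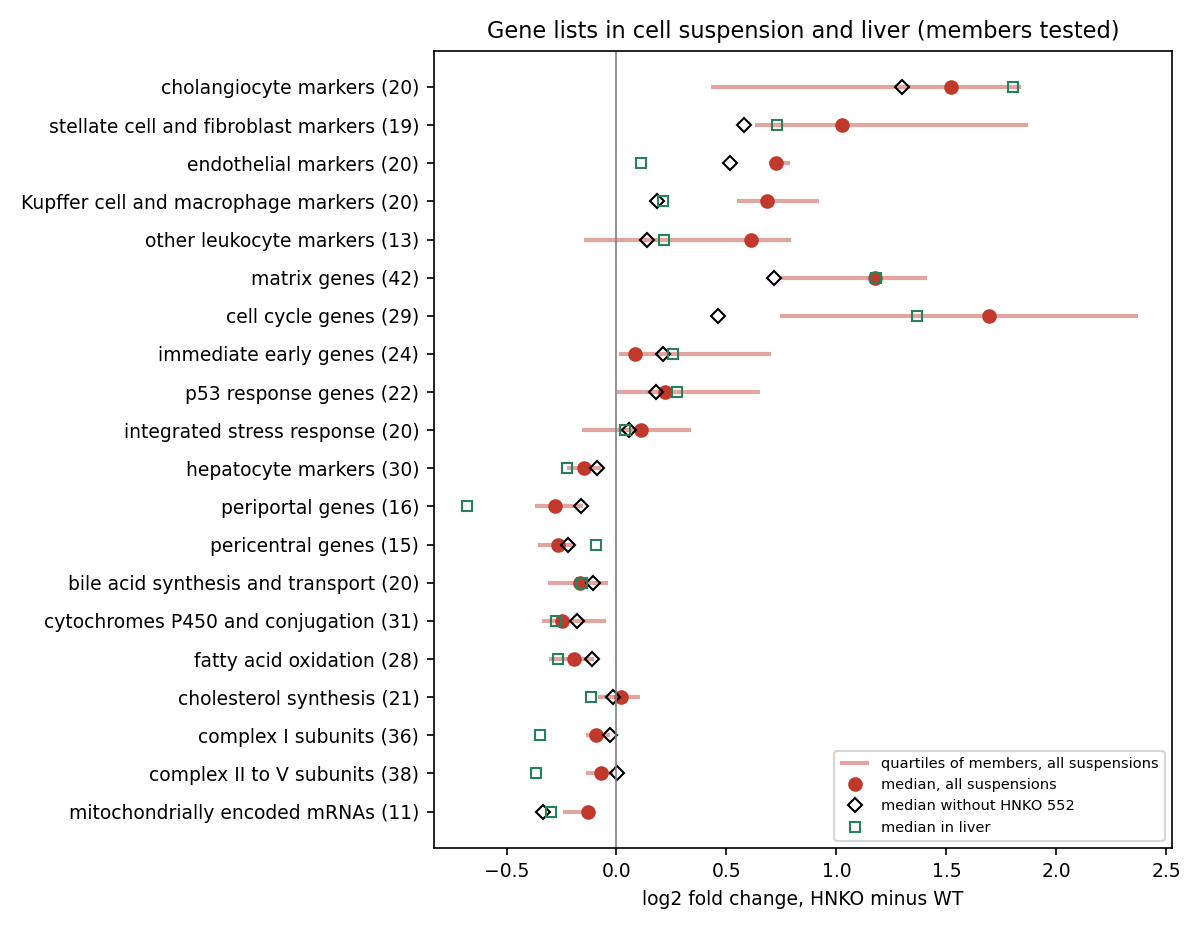
Median log2 fold change of HNKO over WT for gene lists in cell suspension, with quartiles of the members, beside the medians without HNKO 552 and in liver. The cell cycle median was 1.69 with and 0.46 without HNKO 552, and complex I stood at -0.09 in suspension and -0.35 in liver.

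The suspension and liver effects were set against each other by a test of their difference. No gene was called by edgeR (0 of 14932), with 673 (4.51%) at an unadjusted p under 0.05, and the suspension also differs from the liver sample in its lobes. In liver, 225 genes (1.51%) were called between HNKO and WT. Of the 154 higher ones (1.03%), 153 had a positive log2 fold change in suspension and 107 an unadjusted p under 0.05 in that direction, against 52.1% and 10.3% of all tested genes, with a median of 0.98 in suspension. Of the 71 lower ones (0.475%), 66 were negative in suspension and 29 reached that p, against 3.998% of all tested genes, with a median of -0.18. The libraries came from the same mice, so these counts are not independent of the liver calls. In primary hepatocytes 1913 genes (12.8%) were called, and the medians of those liver gene groups were 0.25 and -0.10.

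Between suspension and culture, the genotype effect differed for 33 genes (0.221%), 27 with a more positive effect in suspension. With the mouse as a fixed block 197 genes were called, all 33 among them. Besides Ccdc120, they included 5 genes picked after their values were seen. Hmox1, the heme oxygenase induced by oxidative stress, averaged 42.2 CPM in HNKO and 24.3 CPM in WT suspensions. Its log2 fold change was 0.79 in suspension and -1.37 in culture, where it fell. Upp1, a uridine phosphorylase, had 1.19 in suspension and -0.77 in culture, and Ackr3, a chemokine-scavenging receptor, had 2.17 and -2.27. Stab2, a scavenger receptor of sinusoidal endothelium, had 0.63 in suspension and -0.86 in culture. Apold1, an early response gene of endothelium, had 1.38 and -0.91. None of these 5 was called within suspension.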

How the data were processed

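Total RNA (500 ng) from liver, cell suspension and primary hepatocytes was depleted of ribosomal RNA and sequenced as 51-base pairs. The authors aligned the reads to GRCm38 with STAR (2.7.2b in the submitters' processing notes, while the methods name an older release) and counted fragments with both ends aligned using featureCounts 1.6.4. The deposited values were raw counts per gene for 54232 genes and 36 libraries, with no normalization. Whether counting used strand is not given in the sources used here, so antisense and overlapping genes are uncertain, as are close paralogs such as the Mup genes. Total counts ran from 14157949 to 20350519 in HNKO and from 8698735 to 18930462 in WT suspensions. Symbols and coordinates came from GENCODE M21.

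The study excluded 1 low-quality library that it does not name. The WT liver with the lowest mean Spearman correlation with its sample type (mouse 558) was left out here, which left 35 libraries. Genes were kept by filterByExpr (minimum count 10), scaled by TMM and tested with edgeR 4.0.16 (quasi-likelihood, legacy form, 1 coefficient per group, two-sided) in R 4.3.3. CPM are TMM-scaled and log2 CPM have a prior count of 2. The procedure was also run on simulated counts, with changes added only to well-counted genes. These counts held no mouse effect and no outlying library, so the run does not speak to those features or to genes of low counts. Across mice, the median correlation of deviations between suspension and liver of the same mouse was 0.32, against -0.04 between mice, and it was 0.16 against -0.03 for suspension and culture, so the mouse was used as a block in an alternative.

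Named genes were Nampt, the called genes, the 15 higher and 15 lower genes of smallest p with at least 1 CPM in the higher genotype and no predicted gene, up to 4 members of each list by smallest p, and all members of the NAD, Cib, flippase and CUPID lists. A few outside this rule were chosen after their values were seen (the keratins and the culture comparison). The members and the 31 gene lists were chosen with earlier results of these data known, and the clock and Mup lists after these values were seen. Of the list members, 41 were not tested. Alternatives were RLE scaling, no filter, DESeq2 1.42.0, all 36 libraries, the suspensions alone (on their own and on the full set of tested genes), the newer edgeR form, leaving out each suspension, and mouse as a block with voom of limma 3.58.1.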

Additional observations from a re-analysis of the deposited data

Results flagged for a closer look

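Of 122 sets of 6 suspensions checked for a value far from the rest, 9 had one, and chance gives about 1 in 20. The HNKO suspension of mouse 552 stood apart for Atp11a (5.35 log2 CPM, against 4.39 to 4.71 in the other HNKO suspensions), Pigg (3.55, against 3.97 to 4.19) and Foxa1 (2.67, against 3.13 to 3.40). It also stood apart in the mean log2 CPM of hepatocyte markers (10.9, against 11.3 to 11.4), Kupffer cell and macrophage markers (5.29, against 3.11 to 3.61) and other leukocyte markers (-0.0061, against -1.40 to -0.88). The HNKO suspension of mouse 546 was low for Scamp5 (4.13 log2 CPM, against 4.72 to 4.97). Among WT suspensions, mouse 544 was high for Clec4g (6.66 log2 CPM, against 5.67 to 5.97) and mouse 556 was low for fatty acid oxidation genes (7.68, against 8.30 to 8.63). The genotype effect on Ccdc120 was larger in suspension than in primary hepatocytes by 2.51 on the log2 scale, by a test of that difference.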

How the results depend on the processing

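The 4 calls changed with the libraries in the fit and with the tool, and the cause was not tested. RLE scaling gave the same 4 genes, and no filter or the newer edgeR form gave 9 each, with the 4 among them. DESeq2 called 225, the 4 included. With all 36 libraries Nampt had -1.23 (adjusted p = 0.15), and 3 genes were called in suspension. With the 12 suspensions alone 0 were called, Nampt had -1.23 (adjusted p = 0.16), Cib3 and Ccdc120 had adjusted p = 0.11 and Atp11a 0.15. On the genes of the full fit, chosen after seeing the data, the suspensions alone also gave 0, and Nampt in cell suspension had -1.24 (adjusted p = 0.16). With the mouse as a random block (limma voom) 2 genes were called, Nampt at -1.22 (adjusted p = 0.0050) and Atp11a, while Cib3 (adjusted p = 0.26) and Ccdc120 (0.21) were not. Leaving out 1 suspension in turn gave 3 to 326 calls, Nampt between -1.36 and -1.05 and called each time, and without WT 554 or HNKO 552 3 genes. Chosen after seeing the data, leaving out HNKO 552 and WT 544 together gave 12 calls, and the suspensions alone without HNKO 552 gave 0, with Nampt at -1.21 (adjusted p = 0.32).

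The difference from liver had 0 calls in all 15 alternatives run, the block included. That from culture had 3 calls with all 36 libraries, 7 to 42 leaving out 1 suspension and 197 with the mouse as a fixed block, which held the 33. Lists with medians that moved by more than the spread between libraries were cell cycle genes, cholangiocyte markers, erythroid transcripts and fetal liver genes, in 2 alternatives each. Each median covers the members kept in that fit. The spread was the larger SD of the 2 genotypes and includes HNKO 552, so a list not named can still move. The macrophage median, 0.68 in the main fit, fell as low as 0.12. Depth limits genes near 1 CPM, such as Krt7, for which few fragments were counted. It also limits called genes, since WT suspensions held 3 to 15 fragments of Ccdc120 and 4 to 14 of Cib3.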

Other observations

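Transcripts of major urinary proteins, the pheromone carriers that mouse liver secretes, were described after their values were seen. Of 22 genes 14 were tested, 12 had negative log2 fold changes in suspension and 6 of those reached an unadjusted p under 0.05, against 3.998% of all tested genes. The list median was -0.83 (-1.40 without HNKO 540 and -0.45 without WT 558), against -1.29 in liver. Mup3 had 1105, 1930 and 2958 CPM in HNKO suspensions, against 1923, 2733 and 4449 CPM in WT suspensions, and the groups overlapped. Mup2 had 1.31, 2.38 and 4.03 CPM in HNKO and 5.19, 6.85 and 9.09 CPM in WT suspensions, without overlap. Mup20, the pheromone darcin, went the other way, with 18.8, 69.4 and 205 CPM in HNKO and 13.1, 18.5 and 41.9 CPM in WT suspensions. Fragments may be divided among these near-identical genes, so single values are uncertain.

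Circadian clock genes, also taken up after their values were seen, had 14 of 18 negative log2 fold changes and a median of -0.26 (-0.15 without HNKO 552 and -0.43 without HNKO 562). Of them 0 were called and 1 reached an unadjusted p under 0.05, against 14.3% of all tested genes. That gene was Bhlhe41, a clock repressor, which had 0.819, 1.58 and 9.83 CPM in HNKO and 1.56, 9.88 and 18.4 CPM in WT suspensions. Dbp, a clock-controlled activator, had 29.7, 75.9 and 241 CPM in HNKO suspensions, against 22.8, 141 and 215 CPM in WT suspensions, a wide range in both genotypes. The hour at which each mouse was sampled was not used here.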
